A study of Mus musculus with 15 samples.

Results

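Neurotrophins are secreted growth factors, and 5 genes of the family were followed here through the cells of the mouse prefrontal cortex (PFC). Bdnf and Ntf3 encode the ligands BDNF and NT-3, Ntrk2 and Ntrk3 encode their receptors TrkB and TrkC, and Ngfr encodes p75, a receptor that binds all neurotrophins and their uncleaved precursors. The genes were taken by symbol, and all 5 were found among the 26145 genes counted. BDNF is best known for strengthening and stabilising synapses in the cortex, its transcription in neurons is raised by electrical activity and calcium entry, and its receptor TrkB signals through the Ras and MAP kinase, PI3 kinase and phospholipase C pathways. NT-3 acts mainly through TrkC. The Ntrk2 locus also makes a truncated TrkB without the kinase domain, which is the main form in astrocytes.

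Single-cell RNA was collected from the PFC of male C57BL/6N mice by droplet capture, and each of 15 libraries pooled tissue of 2 mice. Adults labelled 8-10 weeks, called P60, gave 12 libraries, and mice of 3 weeks, called P21, which had no self-administration, gave 3. Per the study the adults received the catheter at P60, so that they were older when taken, and by more at the later times. The adults carried a jugular catheter after food training and pressed a lever for cocaine or for saline, 6 libraries each, and were taken at the end of maintenance (15 days), at 48 h of withdrawal or at 15 days of withdrawal, with 2 libraries for each treatment and time. The P21 libraries were made from 4 mice in all, so that libraries may share mice, and the catheter, food training and library preparation differ along with age, so that these cannot be told apart from it.

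The retained cells numbered 35360, of which 24822 were adult. Library totals were 8375172 to 42892922 UMIs (unique molecular identifiers, 1 per captured RNA molecule) at P60 and 19765973 to 40972771 at P21, and the median cell held 3426 to 11334.5 UMIs. Cell classes and the 26 excitatory (Exc) and 12 inhibitory (Inhib) clusters are those the study deposited. Each class held its own marker at the highest level, Slc17a7 in excitatory neurons (413.6 CPM at P60), Gad1 in inhibitory neurons (1578 CPM), Gja1 in astrocytes (969 CPM), Pdgfra in oligodendrocyte precursors (753 CPM), Mog in mature oligodendrocytes (3009 CPM), C1qa in microglia (13252 CPM) and Flt1 in endothelial cells (2630 CPM). A tissue tag names the nucleus accumbens where the source names the PFC, and the excitatory neurons held Slc17a7 and cortical layer genes. Levels are CPM, the UMIs of a gene scaled to the total of a cell class in a library, as mean ± SD across those libraries in which 10 or more cells of that class were retained. In such a summed level, fewer cells that express a gene and less of its RNA per cell cannot be told apart.

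On the mm9 assembly the genes lie at chr2:109514857-109567204 on the plus strand (Bdnf), chr6:126051431-126116762 on the minus strand (Ntf3), chr13:58907957-59235331 on the plus strand (Ntrk2), chr7:85337248-85723294 on the minus strand (Ntrk3) and chr11:95430132-95449049 on the minus strand (Ngfr). Counts are made over whole genes, so that the 10 coding transcripts of Bdnf with 7 first-exon starts are 1 value, and the 5 of Ntrk2 with 3 different 3′ ends, full-length and truncated TrkB, are 1 value as well. No other annotated gene overlapped any of the 5.

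Several Bdnf promoters are known to respond to neuronal activity. RefSeq promoter windows (GRCm38.p6, 250 bases before to 50 after a start) were at hand for 4 of the 5 genes, 7 of them for Bdnf, 2 for Ntf3 and 1 each for Ngfr and Ntrk2. The full cyclic AMP response element TGACGTCA was in none of the 11 windows and in 1.79% of the 32851 mouse promoters searched on both strands. Its variant TCACGTCA, the calcium-responsive element known from Bdnf, was in 1 Bdnf window and in 0.441% of all promoters. That window, chr2:109692186-109692485 on the plus strand, is shown because genes induced by activity are set beside Bdnf in the age comparison, and its capitals mark the element, which begins 38 bases before the start.

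Bdnf promoter window: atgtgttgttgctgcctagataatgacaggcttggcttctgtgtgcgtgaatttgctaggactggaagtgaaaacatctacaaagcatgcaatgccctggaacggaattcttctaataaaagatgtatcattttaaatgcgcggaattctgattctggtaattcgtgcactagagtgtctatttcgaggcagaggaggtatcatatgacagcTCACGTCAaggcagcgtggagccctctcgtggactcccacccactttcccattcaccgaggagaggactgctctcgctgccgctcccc

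The match describes the letters of the window only. Transcripts from this start are summed with those from the other starts in every Bdnf value given here.

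Bdnf was highest in excitatory neurons at both ages. At P60 it reached 151.1 ± 17.7 CPM (n = 12 libraries) against a median of 10.4 CPM over the 8 classes, and in each library with both classes (11 of 11) it was higher in excitatory neurons than in astrocytes, the next class at 18.3 ± 22.2 CPM. That second place rests on the 4 libraries of 15 days, in which astrocytes held 29.9 to 65.1 CPM. In the 7 others they held 0 to 11.9 CPM with a mean of 3.84 CPM, below microglia (11.8 CPM) and inhibitory neurons (8.32 CPM) in the 8 libraries of those times. The order below excitatory neurons (astrocytes, microglia, inhibitory neurons, oligodendrocyte precursors, mature oligodendrocytes, endothelial cells, newly formed oligodendrocytes) had no neighbours that differed by more than the larger SD. At least 1 Bdnf UMI was seen in 53.8% of excitatory cells at P60 (median 13622 UMIs per cell) and in 1.63% of endothelial cells (median 4515.5 UMIs). After each cell was thinned to 2000 UMIs the shares were 18.6% and 0.622%.

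The low Bdnf levels outside excitatory neurons are given beside an excitatory marker. Per 100 UMIs of Slc17a7, the vesicular glutamate transporter, there were 36.3 UMIs of Bdnf in excitatory neurons at P60, 42.6 in inhibitory neurons and 32.5 in astrocytes, and 5.45 to 23.6 in the other classes. Among astrocyte clusters, Astro_1 and Astro_2 held 34.1 and 40.0 CPM, and their Slc17a7 was 139 and 190 CPM beside 35.6 CPM in Astro_4, where no Bdnf UMI was seen in 116 cells. The part that RNA from excitatory neurons has in these levels was not tested.

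**Figure D1:**
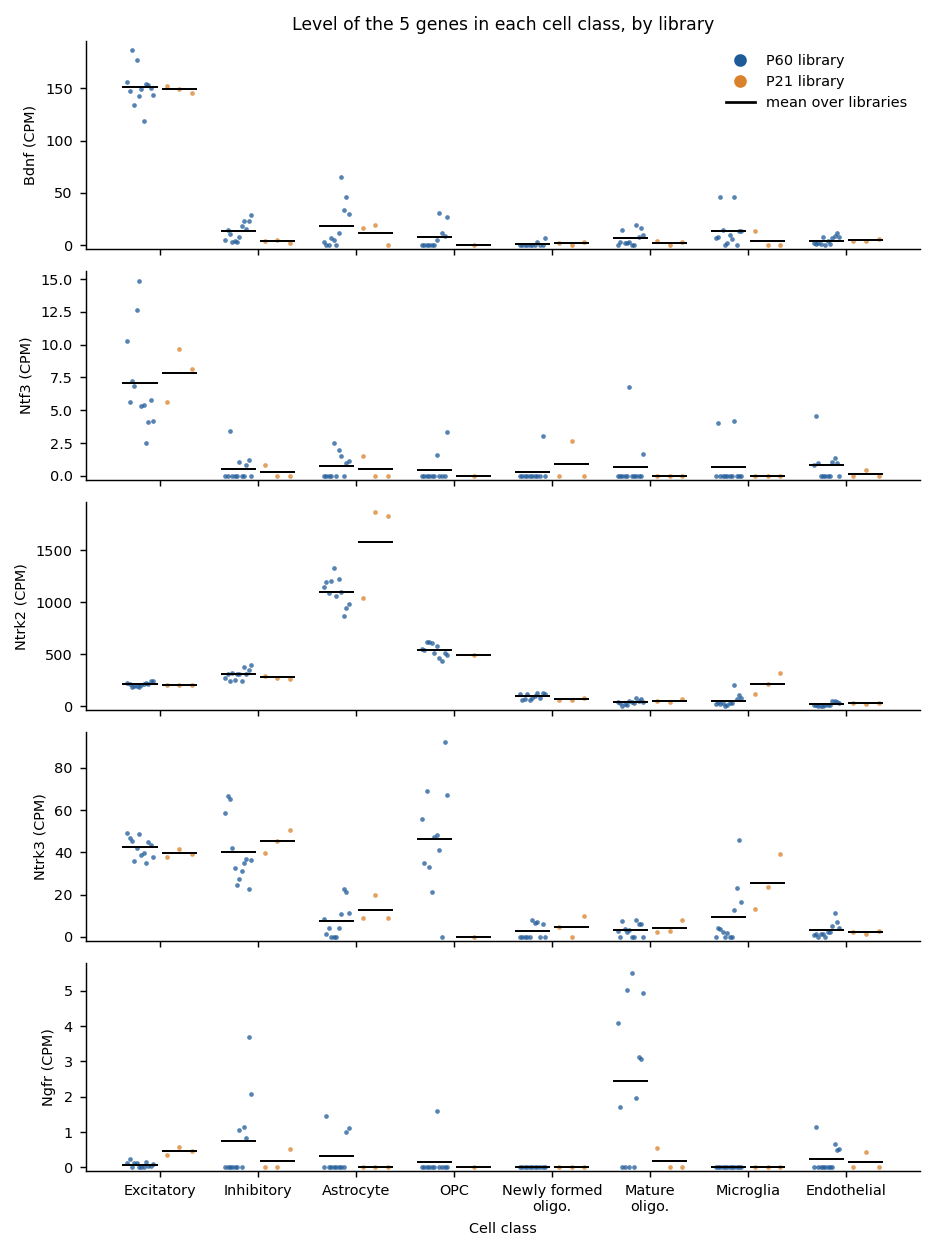
Level (CPM, linear axis) of each of the 5 genes in 8 cell classes, 1 point per library with at least 10 cells of the class, P60 in blue and P21 in orange, black bars at the mean. Bdnf and Ntf3 stand out in excitatory neurons and Ntrk2 in astrocytes (mean 1102 CPM at P60), while Ngfr stays below 6 CPM in every library.

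Ntf3, the gene of NT-3, was an excitatory gene at a low level. Its mean was 7.07 ± 3.70 CPM at P60 and it was 0.813 CPM or less in every other class, and the excitatory level was the higher in 12 of 12 libraries against endothelial cells. Within the endothelial class Ntf3 reached 7.41 CPM in Endo_2 (11 UMIs), the cluster with Acta2 at 935 CPM and Myh11 at 275 CPM, both smooth muscle genes.

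The receptors had a wider reach. Ntrk2 was highest in astrocytes, at 1102 ± 134 CPM (n = 11), followed by oligodendrocyte precursors (537.7 ± 61.9 CPM), inhibitory neurons (306.6 ± 49.3 CPM) and excitatory neurons (213.4 ± 19.1 CPM), and each of these steps exceeded the larger SD and held in every library with both classes. It was lowest in endothelial cells, at 21.6 ± 17.8 CPM, with 35.1 to 50.7 CPM in the 4 libraries of 15 days and 3.00 to 14.4 CPM in the 8 others. All 8 astrocyte clusters held it, from 799.7 CPM in Astro_2 to 1372 CPM in Astro_3, and 95.6% of astrocytes had a UMI of it beside 7.38% of endothelial cells, whose cells were deeper (median 4515.5 against 3512 UMIs).

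Ntrk3 was shared by neurons and oligodendrocyte precursors. Its levels were 46.4 ± 25.1 CPM in precursors, 42.4 ± 4.89 CPM in excitatory neurons and 40.0 ± 15.3 CPM in the inhibitory class, and these 3 did not differ by more than their SD. The next class, microglia, was at 9.19 ± 13.9 CPM. That place rests on the 4 libraries of 15 days, in which microglia held 12.5 to 46.1 CPM. In the 8 others they held 0 to 4.04 CPM, beside 0 to 8.52 CPM in the astrocytes of those times. Ngfr was rarely detected. Its highest class at P60 was mature oligodendrocytes, at 2.45 ± 2.14 CPM from 16 UMIs in 1578 cells, and no UMI was seen in microglia, where the limit that a count of 0 allows is 0.755 CPM (3 UMIs of the summed total, counting error only). At P21 the highest class was excitatory neurons, at 0.460 CPM.

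Within excitatory neurons the Bdnf level varied widely between clusters. At P60 Exc_2 held 568 ± 74.95 CPM and Exc_4 held 22.2 ± 10.8 CPM, a ratio of 25.6 between 2 clusters that both hold the upper-layer genes Calb1 (262 and 322 CPM) and Cux2 (156.9 and 83.1 CPM). Exc_2 exceeded the next cluster, Exc_13 at 424.5 ± 129.7 CPM, in 11 of 12 libraries, and Exc_13 exceeded Exc_17 (275.4 ± 49.2 CPM) in 9 of 9. Most neighbours in the order of the 26 clusters could not be separated: 4 of 25 steps exceeded the larger SD. A Bdnf UMI was found in 94.4% of Exc_2 cells (median 12556 UMIs) and in 15.9% of Exc_4 cells (median 9991 UMIs), and in 56.3% and 4.08% after thinning.

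The lowest Bdnf levels lay in clusters of different layers. Besides Exc_4 and Exc_3 (40.7 ± 13.03 CPM), they were the 3 clusters with the deep-layer genes Foxp2 and Syt6, Exc_18, Exc_19 and Exc_20 (25.7 to 26.9 CPM), and Exc_21 (22.6 ± 14.0 CPM), which carried Tshz2 at 2066 CPM. From Exc_3 down, no neighbours in the order differed by more than the larger SD. At P21 the order began again with Exc_2 (412 ± 40.3 CPM) and ended with Exc_21 (7.19 ± 2.36 CPM).

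Ntf3 marked a block of clusters. At P60 Exc_4 (41.7 ± 9.92 CPM), Exc_5 (32.3 ± 11.9 CPM), Exc_1 (30.7 ± 15.6 CPM), Exc_3 (30.02 ± 11.05 CPM), Exc_2 (18.6 ± 7.49 CPM) and Exc_9 (10.1 ± 7.17 CPM) led the order, and every other cluster was at 2.42 CPM or lower. These are the clusters with the most Calb1, 262 to 322 CPM. The step from Exc_9 to the next cluster exceeded the larger SD and held in 10 of 12 libraries. Bdnf and Ntf3 did not share this pattern: over the 26 clusters their levels correlated with r = -0.01, and the cluster with the most Ntf3 was the one with the least Bdnf.

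Ntrk3 was highest in the same block. Exc_2 (88.9 ± 19.0 CPM), Exc_1, Exc_3, Exc_4, Exc_5 and Exc_9 (62.0 ± 15.9 CPM) were also its 6 highest clusters, and its r with Ntf3 was 0.62 over 26 clusters. Exc_21 was apart at the low end with 2.20 ± 2.53 CPM against 16.2 ± 6.94 CPM in Exc_22, lower in 9 of 9 libraries. Ntrk2 was nearly even, from 306.3 ± 53.7 CPM in Exc_23 to 152.2 ± 20.8 CPM in Exc_21, a ratio of 2.01, and 0 of 25 neighbouring steps exceeded the larger SD. The few Ngfr UMIs of excitatory neurons were most frequent in Exc_21, at 2.04 ± 3.59 CPM at P60 and 6.66 ± 1.64 CPM at P21. These correlations describe 26 clusters that share libraries and depth.

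**Figure D2:**
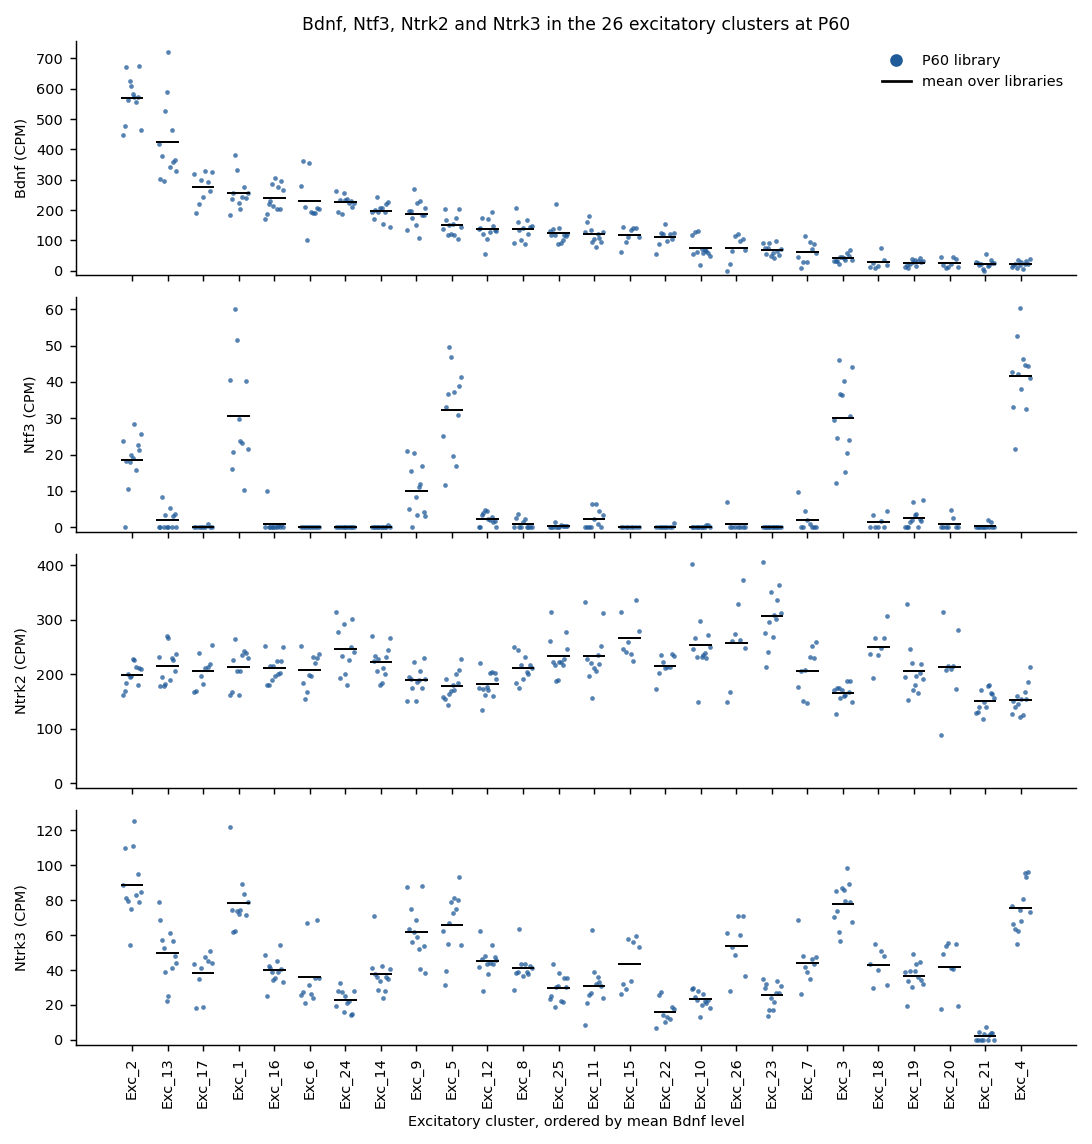
Levels (CPM, linear axis) of Bdnf, Ntf3, Ntrk2 and Ntrk3 in 26 excitatory clusters at P60, ordered by mean Bdnf, 1 point per library with at least 10 cells and bars at the mean. Bdnf falls from 568 to 22.2 CPM along the axis, Ntf3 exceeds 2.42 CPM in 6 clusters spread along it (Exc_2, Exc_1, Exc_9, Exc_5, Exc_3 and Exc_4 from left to right), and Ntrk2 stays between 152.2 and 306.3 CPM.

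Single cells carried ligand and receptor together. Of the excitatory cells with Bdnf at P60, 90.6% also had Ntrk2, and of those without Bdnf 80.5% had it. Of the cells with Ntf3, 56.1% had Ntrk3 beside 36.8% of those without. These shares were not thinned, and the depth of cells with and without a ligand was not compared.

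Among inhibitory clusters Ntrk2 was highest in Inhib_8 (561 ± 129 CPM, n = 2 libraries) and Inhib_7 (411 ± 80.6 CPM, n = 9) at P60, and Inhib_7 led at P21 with 432 ± 56.2 CPM. At P60 Inhib_7 held Gad1 at 2295 CPM, Sst at 476 CPM, Pvalb at 256 CPM and Vip at 14.0 CPM, and at P21 it held no Pvalb UMI. At P21 Ntrk3 was highest in Inhib_6, the cluster with Pvalb at 1404 CPM, at 88.0 ± 12.3 CPM, and lowest in Inhib_7, at 12.2 ± 16.2 CPM. At P60 7 of the 12 inhibitory clusters could be ordered, and too few adult libraries held 10 cells of the others.

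Genes with the most similar pattern were sought over 44 types (neuron clusters and other classes) among 11243 genes of at least 20 CPM in a type, by the correlation of log2(mean CPM + 1). Bdnf was closest to Lingo1 (r = 0.872), AI115009 (0.867) and Rtn4r (0.867), and Lingo1 and Rtn4r are known as parts of the Nogo receptor complex. Ntf3 was closest to Otof (0.848), Evc2 (0.816) and Alox12b (0.780). Ntrk2 was closest to Caskin1 (0.898), Dclk1 (0.883) and Pde10a (0.848), and Ntrk3 to Ppp1r1a (0.857), Fam49a (0.836) and Stk32c (0.830). The types share libraries, and the values are descriptions.

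Whether the family changes between early adolescence and adulthood was asked by setting the 6 saline P60 libraries against the 3 P21 libraries. A gene is called where edgeR's quasi-likelihood test gave a Benjamini-Hochberg adjusted p under 0.05 over all genes tested in that type together with a change over 1.5-fold, and log2 changes are P60 minus P21 with their SE. In the classes 13 tests of the 5 genes could be made, and 1 was called, an increase of Bdnf in inhibitory neurons. Over all genes 5940 of 51276 tests in the classes were called. In excitatory neurons, where 18.0% of the 13089 genes tested were called, none of the 4 genes tested was.

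The class level of Bdnf in excitatory neurons overlapped between the ages. The saline P60 libraries ranged from 143.2 to 186.1 CPM with a median of 149.8 CPM, and the P21 libraries held 145.7, 149.5 and 151.7 CPM. The P21 values lay inside the range of P60. The log2 difference was 0.14 ± 0.11 (adjusted p = 0.342, edgeR). The class held its clusters in different shares at each age. Exc_20, low in Bdnf, made up 8.34% of its cells at P21 and 1.40% in saline P60, and Exc_10 made up 1.56% and 6.78%. With the clusters weighted by their share of UMIs at P21 the pooled Bdnf level was 151.5 CPM in saline P60 against 149.6 CPM at P21, and weighted by their P60 share it was 154.3 against 161.1 CPM, values given as a description. Ntrk2 differed by 0.11 ± 0.08 (adjusted p = 0.332), Ntrk3 by 0.13 ± 0.09 (adjusted p = 0.285) and Ntf3 by -0.18 ± 0.32 (adjusted p = 0.674), all 3 with overlapping groups.

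In inhibitory neurons Bdnf rose by 2.09 ± 0.45 on the log2 scale (adjusted p = 0.00383, edgeR), among 14.1% of genes called in that class. The 6 saline P60 libraries held 4.33, 7.43, 10.3, 14.8, 23.4 and 29.3 CPM, and the 3 P21 libraries held 2.56, 4.45 and 4.58 CPM. The groups overlapped at 1 P60 library, and the highest were the 2 saline libraries of 15 days, each with at least 28 UMIs. Slc17a7 was higher over the saline P60 libraries together (43.1 CPM) than at P21 (20.9 CPM), but not library by library. It was 55.9 to 67.8 CPM in the 4 adult libraries of 15 days and at most 15.9 CPM in the 8 others, beside 9.73 to 36.0 CPM at P21. Saline maintenance replicate 1 held no Slc17a7 UMI and Bdnf at 14.8 CPM. Per 100 UMIs of Slc17a7 there were 42.1 of Bdnf in saline P60 and 18.6 at P21. Gad1 and Gad2 marked the class at both ages. Over all 12 adult libraries, those of cocaine included, a Bdnf UMI was seen in 7.62% of inhibitory cells (median 8057.5 UMIs). At P21 it was seen in 2.45% (median 6837 UMIs). The shares of endothelial cells were 1.63% and 1.68%, and these shares are given without thinning. The part of excitatory RNA in the rise was not tested. The class was also made up differently at each age: Inhib_7 gave 41.1% of its UMIs in saline P60 and 7.82% at P21, Inhib_2 gave 8.93% and 38.3%, and Inhib_3 gave 5.39% and 0.791%. With the clusters weighted by their P21 share the pooled Bdnf level was 22.2 CPM in saline P60 against 3.89 CPM at P21, and weighted by their P60 share it was 18.1 against 6.44 CPM, from 80 and 24 UMIs in all and with no test. Of the 80 UMIs, 19 came from 17 cells of Inhib_1 (108.6 CPM, against 8.08 CPM at P21), 19 from 25 cells of Inhib_8 (72.9 against 13.5 CPM) and 11 from 39 cells of Inhib_3 (46.3 against 41.0 CPM), among 550 cells in all. More than any other cluster, Inhib_1 sets the value of 22.2 CPM, since it held 12.0% of the UMIs at P21. Other clusters of over 100 cells at the 2 ages together lay lower in saline P60, Inhib_6 at 20.4 against 2.96 CPM from 3 UMIs each, Inhib_7 at 9.93 against 4.14 CPM, Inhib_2 at 5.08 against 2.11 CPM and Inhib_9, in the other direction, at 5.21 against 8.18 CPM. The call was lost when cells were classed by the class name alone (log2 0.98, adjusted p = 0.122, edgeR), and it held in the 8 fits without 1 library in which the gene could be tested. Without saline 15-day replicate 1 it was not tested. The difference from the change in excitatory neurons, from a joint fit, was not called (2.09 ± 0.59, adjusted p = 0.0649), but was called with no filter on low counts (4.9e-09) and without saline 48 h replicate 1 (adjusted p = 0.00274), saline 48 h replicate 2 (0.00941) or saline 15-day replicate 2 (0.0121).

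Ntrk2 in astrocytes and microglia had a lower mean at P60 without a call. In astrocytes, where 0.864% of genes were called, P60 values ran from 940.5 to 1206 CPM with a median of 1059 CPM, and P21 libraries held 1036, 1824 and 1870 CPM. One P21 library lay within the adult range and 2 above it. The log2 difference was -0.50 ± 0.21 (adjusted p = 0.319, edgeR). It was called without P21 replicate 1 (adjusted p = 0.0364), and by class name alone the difference was 0.14 (adjusted p = 0.775). In microglia (0.726% of genes called) the groups did not overlap, 7.51 to 110.6 CPM at P60 against 116.4 to 315 CPM at P21, with a log2 difference of -1.79 ± 0.60 (adjusted p = 0.242). It was called with no filter on low counts (-1.57, adjusted p = 0.0119) and by class name alone (-1.46, adjusted p = 0.0267). Of the saline P60 libraries, the 2 of 15 days held 79.7 and 110.6 CPM and the others 7.51 to 42.4 CPM. The P21 microglia summed to 182 cells and held Pdgfra at 56.1 CPM and Gja1 at 22.4 CPM against 1.01 and 7.55 CPM at P60. Those mark oligodendrocyte precursors and astrocytes, the classes with the most Ntrk2, and their part was not tested.

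The other 3 classes tested gave no call for the 5 genes, and oligodendrocyte precursors, with 22 cells at P21, were not tested. By class name alone Bdnf was called in oligodendrocyte precursors (-3.67, adjusted p = 0.0136, edgeR) and in endothelial cells (-1.51, adjusted p = 0.0451, beside 0.27 ± 0.47 and adjusted p = 0.758 here), and Ntrk2 in precursors (0.81, adjusted p = 0.0217). With no filter on low counts Ngfr was called in excitatory (-2.75, adjusted p = 0.00310) and inhibitory neurons (2.87, adjusted p = 0.0474). In newly formed oligodendrocytes (2.31% of genes called) Ntrk2 differed by 0.64 ± 0.26 (adjusted p = 0.238), in mature oligodendrocytes (17.8% called) by -0.42 ± 0.38 (adjusted p = 0.471) and in endothelial cells (12.4% called) by -0.58 ± 0.58 (adjusted p = 0.572). In inhibitory neurons Ntrk3 differed by -0.40 ± 0.24 (adjusted p = 0.259), and was called with at least 30 cells per library (-0.64, adjusted p = 0.0364). Differences between a class and excitatory neurons were tested 25 times, with 3.72% of all gene tests called, and 1 passed, Ngfr in mature oligodendrocytes. Its P21 libraries held 1 UMI in 512 cells. The 16 UMIs at P60 are from all 12 adult libraries, while the fit used the 6 saline ones, with 0 to 5.52 CPM. In excitatory neurons Ngfr was at 0.460 CPM at P21 and at 0 to 0.224 CPM in the saline P60 libraries, and the fitted difference also holds that fall. With so few UMIs the fitted 5.44 ± 1.43 (adjusted p = 0.0125, edgeR) is no bound on a fold. Without P21 replicate 1 or 2 it was not called. Further differences were called without 1 library, namely Ntrk2 in microglia, without saline 15-day replicate 1 (adjusted p = 0.000444) or replicate 2 (0.0118), Ntrk2 in mature oligodendrocytes, without saline 15-day replicate 1 (0.0197), and Ntrk3 in inhibitory neurons, without saline maintenance replicate 1 (0.0284) or replicate 2 (0.0122) or saline 15-day replicate 2 (0.0451), beside that of Bdnf given above. By class name alone the differences of Bdnf and Ntrk2 in oligodendrocyte precursors and microglia and of Bdnf in newly formed oligodendrocytes were called, with adjusted p up to 0.0285.

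At the level of neuron clusters 84 tests of the 5 genes were made and 4 were called, with 10.4% of all tests in these clusters called. Of the calls 3 were Bdnf. It could be tested in the 26 excitatory clusters only, and in none of Inhib_2, Inhib_7 and Inhib_9, the inhibitory clusters with a fit. Of its 26 tests 13 were positive and 13 negative.

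Bdnf rose in Exc_21 and Exc_19, both among its lowest clusters, and the part of RNA from other excitatory cells in these levels was not tested. In Exc_21 the saline P60 libraries held 4.35, 18.8, 23.6, 23.7, 25.2 and 55.1 CPM and the P21 libraries 5.04, 6.83 and 9.72 CPM. Of the adult libraries 5 lay above all P21 values, and 1 lay below them. The log2 change was 1.89 ± 0.44 (adjusted p = 0.00406, edgeR). In Exc_19, a cluster with the deep-layer genes Foxp2 and Syt6, the P60 libraries held 8.38, 19.4, 28.9, 32.3, 34.4 and 39.9 CPM and the P21 libraries 11.9, 14.7 and 17.2 CPM, and again 1 adult library fell below the rest. The log2 change was 1.09 ± 0.28 (adjusted p = 0.00707). Both calls held when each library was left out in turn. DESeq2 called Exc_19 (adjusted p = 0.0194) and gave no adjusted p for Exc_21.

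Bdnf fell in Exc_4, the upper-layer cluster with the most Ntf3. The P60 libraries held 19.3, 23.3, 23.5, 28.8, 36.7 and 39.2 CPM and the P21 libraries 33.5, 46.0 and 99.99 CPM. The groups overlapped, and the highest P21 value came from 38 cells. The log2 change was -0.92 ± 0.29 (adjusted p = 0.0475, edgeR). This call was lost in 6 of 9 fits without 1 library (log2 -1.24 to -0.49, adjusted p 0.0180 to 0.317), namely saline maintenance replicates 1 and 2, saline 48 h replicate 2, saline 15-day replicate 1 and P21 replicates 1 and 2. It was also lost with DESeq2 (adjusted p = 0.0637).

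A joint fit of 9 libraries compared these age changes directly, a pair of tests added after the values were seen. The clusters were picked from 26 because their calls had opposite signs, so that the values describe them and are no independent evidence that they differ. The change in Exc_19 exceeded that in Exc_4 by 2.02 ± 0.36 on the log2 scale (adjusted p = 0.000157, edgeR, 1.98% of genes called), and the change in Exc_21 exceeded it by 3.01 ± 0.47 (adjusted p = 1.0e-06, 1.47% called).

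In 5 more clusters Bdnf was called under another setting only, and in these the groups did not overlap. The shares of all genes without overlap, or called under at least 1 other setting, were not counted. In the reported fits 9.79% of all genes were called in Exc_2, 13.3% in Exc_14, 1.25% in Exc_26, 8.05% in Exc_15 and 12.5% in Exc_7. In Exc_2, its highest cluster, it ran from 463 to 675 CPM at P60 and from 366 to 444 CPM at P21 with no overlap, a log2 difference of 0.53 ± 0.14 (adjusted p = 0.0102) that was under 1.5-fold and passed it without P21 replicate 1 (0.60) or with at least 30 cells per library (0.59). In Exc_14 it ran from 145.3 to 226.9 CPM at P60 and from 255.0 to 310.5 CPM at P21, a difference of -0.51 ± 0.14 (adjusted p = 0.0103), under 1.5-fold except without P21 replicate 3 (-0.59). In Exc_26, with Fezf2 and Pou3f1, the groups did not overlap (21.1 to 103.5 against 122.9 to 142.4 CPM) and the difference was -0.96 ± 0.25 (adjusted p = 0.0505), which was called without saline 48 h replicate 1 (adjusted p = 0.0369) or saline 15-day replicate 1 (0.0259), with at least 30 cells (0.0363) and with no filter (0.00782). In Exc_15 it ran from 93.4 to 145.2 CPM at P60 and from 163.2 to 222.8 CPM at P21, without overlap (-0.55 ± 0.18, adjusted p = 0.0583), and was called without saline 48 h replicate 1 (-0.62, adjusted p = 0.0358). In Exc_7 it ran from 30.1 to 87.5 CPM and from 97.6 to 99.05 CPM, without overlap (-0.58 ± 0.24, adjusted p = 0.112), and was called without saline 15-day replicate 1 (-0.91, adjusted p = 0.0361).

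**Figure D3:**
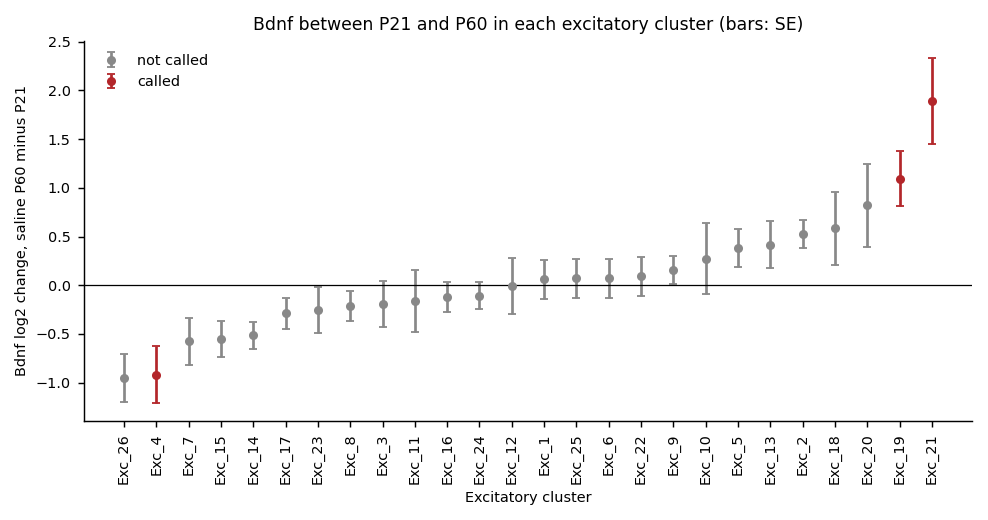
Log2 change of Bdnf from P21 to saline P60 in 26 excitatory clusters, ordered by size, with bars of 1 SE; red points were called. The values run from -0.96 in Exc_26 to 1.89 in Exc_21, with 13 on each side of 0, and Exc_4, Exc_19 and Exc_21 are the called clusters.

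Ntf3 fell in 1 of the 6 clusters where it could be tested. In Exc_9 the P60 libraries held 3.18, 3.46, 4.26, 4.89, 15.5 and 20.5 CPM, each from 1 to 8 UMIs, and the P21 libraries 18.3, 24.1 and 36.2 CPM. Of the adult libraries 5 lay below all P21 values. The log2 change was -1.57 ± 0.41 (adjusted p = 0.0110, edgeR), and it was not called without P21 replicate 2 (adjusted p = 0.0562). In the 5 other clusters differences ran from -0.59 in Exc_2 to 1.35 in Exc_1, which was called without P21 replicate 2 (log2 2.47, adjusted p = 0.0190) and with at least 30 cells (2.58, adjusted p = 0.0127). With no filter Ntf3 was called in Exc_8 (-3.36, adjusted p = 0.00462) and Ngfr in Exc_21 (-2.85, adjusted p = 0.0174).

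The receptors gave no call in neuron clusters. Ntrk3 was higher at P60 in 18 of 23 clusters with a median of 0.33, and 6 had an unadjusted p under 0.05, all positive, where 27.4% of all gene tests in neuron clusters had one. Its largest difference was in Exc_23, 17.1 to 32.3 CPM at P60 against 11.01 to 15.6 CPM at P21 with no overlap (1.02 ± 0.40, adjusted p = 0.0929, edgeR), which was called with all 12 P60 libraries (1.07, adjusted p = 0.0424). Ntrk2 was higher in 22 of 29 clusters with a median of 0.11 and 1 unadjusted p under 0.05. It was called in Exc_7 with at least 30 cells and with the 2 saline libraries of 15 days only (0.62, adjusted p = 0.0439 in both).

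The rest of the pathway was read from lists fixed with earlier results in view, and a list's genes are given for excitatory neurons, beside a median of -0.01 and the 18.0% called over all genes there. Of 10 genes for other ligands, processing and sorting, Pcsk1, a prohormone convertase, rose by 0.72 ± 0.22 and Cadps2, a factor of dense-core vesicle release, fell by 0.63 ± 0.15 on the log2 scale (adjusted p = 0.0213 and 0.00629, edgeR). None of 9 coreceptors and receptor partners was called. Of 32 genes that signal below Trk receptors 2 rose, the adaptors Shc1 (1.03 ± 0.27) and Frs3 (0.97 ± 0.24), and 2 fell, the docking protein Gab1 (-1.27 ± 0.45) and the GTPase Nras (-0.91 ± 0.13). Nras fell in 17 of 26 excitatory clusters.

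Of 20 genes induced by BDNF or activity 9 fell and 0 rose, beside the 18.0% of all genes called in either direction, with a median log2 change of -0.59 in excitatory neurons, led by Egr2 (-2.50 ± 0.28), Junb (-2.06 ± 0.33) and Sik1 (-1.88 ± 0.36), transcription factors and a kinase of the early response. Within clusters Junb fell in 22 of 26, and Egr2 and Sik1 could be tested in none. The summed level of the 20 genes in excitatory neurons was 827 CPM in saline P60 and 1393 CPM at P21. In Exc_21 and Exc_19, where Bdnf rose, the sums were 773 against 1065 and 712 against 1045 CPM, and in Exc_4 they were 414.0 against 852.7 CPM. Over the 26 clusters Bdnf correlated with this sum with r = 0.37 in saline P60 and 0.41 at P21. Of the 11 layer genes 1 rose, Rorb (0.93 ± 0.26), and 7 fell in the class, among them Nxph4 (-3.99 ± 0.46), Syt6 (-2.15 ± 0.23) and Ctgf (-2.15 ± 0.26). These are class values over a changed mix, since Exc_18, with Syt6, made up 6.19% of excitatory cells at P21 and 1.84% in saline P60. Within clusters Calb1 fell in 14 of 15 with a median of -1.17, and Syt6 in 2 of 3 with a median of -0.84. Fezf2 fell in 4 of 15 and Cux2 in 2 of 13, while Etv1 fell in 2 of 18 and rose in 1. Rorb rose in 4 of 14. Pou3f1, Tshz2 and Foxp2 were called in none of the clusters tested, and Nxph4 and Ctgf could be tested in none.

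The other classes are given by their called genes, and microglia had none in these lists. In inhibitory neurons, where 14.1% of all genes were called, the convertase Pcsk2 rose by 0.73 ± 0.19 and Furin, which also cuts proneurotrophins, fell by 0.93 ± 0.25 on the log2 scale, and 2 of 12 activity genes fell, Spry2 (-1.72 ± 0.46) and Crem (-0.65 ± 0.20). Of 5 layer genes 2 fell there as well, Calb1 (-2.19 ± 0.19) and Cux2 (-0.80 ± 0.19). These too are class values over a changed mix, since the Sst clusters Inhib_1 and Inhib_2 gave 12.0% and 38.3% of inhibitory UMIs at P21 and 3.97% and 8.93% in saline P60. Cpe, a carboxypeptidase of the secretory pathway, fell in astrocytes (-1.50 ± 0.29) and endothelial cells (-1.67 ± 0.18). In endothelial cells (12.4% of all genes called) the Ras activator Sos1 (0.85 ± 0.16) and Etv1 (0.72 ± 0.19) rose, and the phosphatase Dusp6 (-1.06 ± 0.12) and Crem (-0.84 ± 0.14) fell. In mature oligodendrocytes (17.8% called) Sort1, the p75 partner sortilin, rose by 0.73 ± 0.22, and Nras (-1.06 ± 0.26) and Map2k1 (-0.85 ± 0.24) fell. Among activity genes there Nr4a1 rose (1.80 ± 0.36) and Junb fell (-1.91 ± 0.54), and Etv1 rose (1.40 ± 0.21). In newly formed oligodendrocytes Fosb rose by 2.23 ± 0.52.

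Cocaine and saline adults were compared at each time from a fit of all 12 adult libraries with a mean for each of 6 groups, so that the groups share 1 estimate of the spread. None of the 5 genes was called in any class or neuron cluster at any time by edgeR or DESeq2. The background was low except at 15 days. Calls made up 0.0115% of all gene tests in the classes and 0.00647% in the neuron clusters at maintenance, 0.00662% and 0.00485% at 48 h, and 0.334% and 1.19% at 15 days. They made up 0.00690% and 0.0383% for the mean over times, and 0.0115% and 0.0373% for the difference between times. The tests of the 5 genes in neuron clusters with an unadjusted p under 0.05 were 3 of 47 at maintenance, 9 of 62 at 48 h, 5 of 83 at 15 days, 6 of 44 for the mean over times and 5 of 44 for the difference between times. Over all gene tests in these clusters the shares were 5.55%, 4.93%, 6.81%, 6.96% and 5.15%. In the classes the counts were 0 of 12, 2 of 17, 1 of 17, 0 of 12 and 1 of 12, beside 4.73%, 4.53%, 5.37%, 6.25% and 4.56% of all gene tests.

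In excitatory neurons Bdnf was 118.6 and 142.8 CPM after cocaine and 148.9 and 177.4 CPM after saline at 48 h. Both cocaine libraries lay below both saline ones, and the log2 difference was -0.34 ± 0.14 (unadjusted p = 0.0297, adjusted p = 0.983, edgeR). With 2 libraries in each group, here and below, such separation is frequent without any effect. The share of all genes that separated so was not counted. At maintenance the values were 134.0 and 156.0 against 147.7 and 186.1 CPM (-0.24 ± 0.14, adjusted p = 0.799), which overlapped. At 15 days they were 153.5 and 154.5 against 143.2 and 150.6 CPM (0.11 ± 0.14, adjusted p = 1.00), with cocaine the higher. Ntf3, Ntrk2 and Ntrk3 differed by between -0.58 and 0.34 on the log2 scale over the 3 times in this class.

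All 9 of the unadjusted p under 0.05 at 48 h in neuron clusters were negative differences of Bdnf. Its mean was lower after cocaine in 17 of 19 clusters tested with a median log2 difference of -0.51, but the clusters come from the same 4 libraries and are not replicates of one another. The lowest p was in Exc_25, a cluster with Etv1 at 266 CPM. There the cocaine libraries held 89.2 and 91.6 CPM and the saline ones 139.4 and 218.9 CPM, without overlap. The log2 difference was -0.93 ± 0.20 (unadjusted p = 6.3e-05, adjusted p = 0.140, edgeR). In Exc_6 (Cux2 228 CPM) cocaine libraries held 100.7 and 192.8 CPM and saline ones 210.7 and 356.3 CPM (-0.91 ± 0.23, adjusted p = 0.254), and in Exc_9 they held 107.5 and 150.1 against 221.6 and 269.7 CPM (-0.90 ± 0.22, adjusted p = 0.998). In Exc_2 cocaine (574 and 609 CPM) and saline (584 and 626 CPM) overlapped, with a difference of -0.03 ± 0.18.

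Bdnf in Exc_25 was called at 48 h when the filter on low counts was left out (adjusted p = 0.0192, edgeR), when at least 30 cells per library were asked for (0.0400) and when the 4 libraries of that time were fitted alone (0.0274). It was also called without saline maintenance replicate 1 (adjusted p = 0.0325), saline maintenance replicate 2 (0.0424) or saline 48 h replicate 2 (0.0161). At 15 days Bdnf was higher after cocaine in 18 of 25 clusters with a median of 0.10, and at maintenance it was lower in 10 of 15 with a median of -0.20. The differences between the 3 times were not called in any cluster, and the lowest adjusted p was 0.501, for Bdnf in Exc_9.

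**Figure D4:**
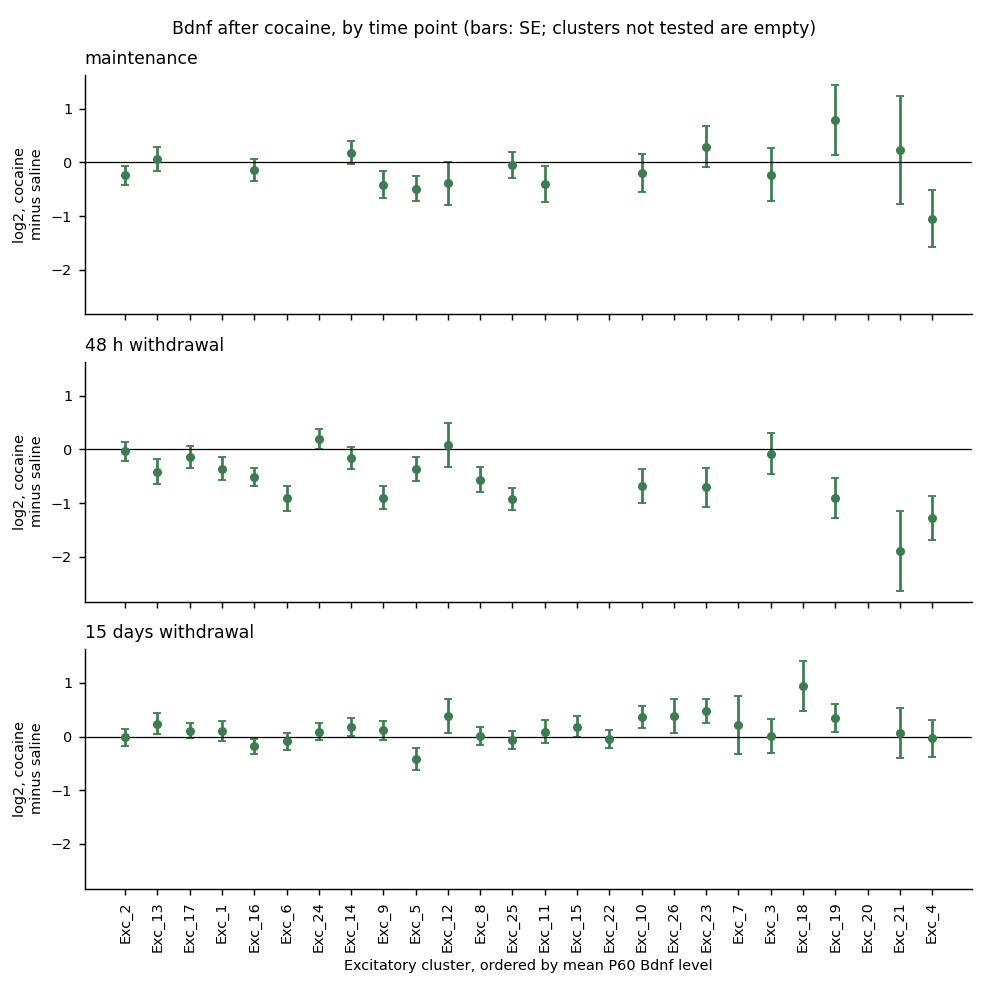
Log2 difference of Bdnf between cocaine and saline in excitatory clusters at maintenance, 48 h and 15 days of withdrawal, with bars of 1 SE; clusters are in the order of the Bdnf level and those without a test are empty. Points lie below 0 in 17 of 19 clusters at 48 h and above 0 in 18 of 25 at 15 days, and none was called.

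The other genes gave isolated values under cocaine. Ntrk3 in oligodendrocyte precursors at 15 days was 0 and 41.0 CPM after cocaine and 67.3 and 92.3 CPM after saline, without overlap (-1.49 ± 0.56, adjusted p = 0.871, edgeR). In Exc_6 it was 24.1 and 35.4 against 35.5 and 68.8 CPM (-0.82 ± 0.27, adjusted p = 0.152), and it was called without saline 15-day replicate 2 (log2 -1.23, adjusted p = 0.00112), where the lone saline library is assumed to vary like the other groups. Ntf3 in Exc_1 was 10.2 and 23.2 against 21.5 and 40.4 CPM (-1.06 ± 0.41, adjusted p = 0.396), and overlapped. In astrocytes Ntrk2 differed by 0.17 ± 0.17 at 48 h and 0.04 ± 0.16 at 15 days. Across the pathway lists no gene was called in any class at any of the 3 times. Ngfr passed the filter on low counts in no comparison of treatment.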

How the data were processed

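Single-cell RNA of mouse PFC was captured in droplets. Per the study methods the authors processed reads with Cell Ranger against mm9 with the Ensembl NCBIM37 annotation, filtered cells on genes, mitochondrial share and doublets, and clustered them with Seurat 2.1.0. They deposited UMI counts per gene and cell, and cell tables with class, cluster and mitochondrial fraction, which were used as given, with no further doublet caller. Of the cells, 33 at P60 and 459 at P21 had a class that did not match their cluster and were left out of the classes.

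UMI counts were summed per library and type (at least 10 cells, at least 2 libraries a group). Mitochondrial (13) and ribosomal protein (143) genes, 8.83 to 11.1% of UMIs in a library, were left out. Tests used edgeR 4.0.16 (TMM, filterByExpr, robust quasi-likelihood) in R 4.3.3 with limma 3.58.1 and were run on all genes and adjusted over all genes tested in a type. The age and 48 h cocaine fits in excitatory neurons were tested on simulated data. DESeq2 1.42.0 was an alternative. Levels are means over libraries, with no test between clusters. Libraries shared at most 1.1% of their cell barcodes. Intervals and limits from 0 UMIs cover counting error only, and p-values rest on the spread estimated between libraries. Since P21 libraries may share mice, the p-values of age may be too small.

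The 5 genes and the gene lists were chosen with earlier results of these data known. Named beside the 5 were the 3 genes of most similar pattern at P60 for each of at least 20 CPM in a type, and up to 3 genes a direction and list that were called. Of the listed genes 2 (Hras and Lamp5) were not found by symbol. Classing cells by class name alone, the joint test of 2 clusters and the weighting of clusters by a fixed mix were added after seeing the data. Python 3.11.15 was used for summing and figures.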

Additional observations from a re-analysis of the deposited data

Results flagged for a closer look

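Among 20 groups of libraries examined for a library far from the others, of which chance gives about 5%, 2 held one. Ntf3 in excitatory neurons was 12.7 CPM in saline 48 h replicate 1 (103 UMIs in 685 cells), against a median of 5.68 CPM over 6 saline P60 libraries. It was not alone at that time, since cocaine 48 h replicate 1 held 14.9 CPM, while the second saline and cocaine libraries of 48 h held 5.32 and 5.42 CPM. Bdnf in microglia was 46.5 CPM in saline maintenance replicate 2 (12 UMIs in 99 cells), against a median of 11.6 CPM.

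In 3 cases a joint edgeR test of an age change between cell types was called. The log2 change of Ngfr in mature oligodendrocytes exceeded that in excitatory neurons by 5.44 (adjusted p = 0.0125), with 1 UMI in these oligodendrocytes at P21. The difference was not called without P21 replicate 1 or P21 replicate 2 (log2 5.11 to 10.8 over the fits without 1 library). The 16 UMIs given above for P60 include the cocaine libraries, which this fit left out. The change of Bdnf in Exc_19 was 2.02 above that in Exc_4 (adjusted p = 0.000157), and that in Exc_21 was 3.01 above it (adjusted p = 1.0e-06). These clusters were picked from 26 because their own calls had opposite signs, so that these p-values are no independent evidence of a difference, and the call in Exc_4 itself was lost in 6 of 9 fits without 1 library. The part of technical differences between libraries in these values was not tested.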

How the results depend on the processing

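Of 254 counts of calls of the 5 genes under an alternative, 227 were within 1.5 times the reported count. A count of 0 beside a reported 0 is among these, and every cocaine comparison had 0 reported calls. The share therefore says little about how stable the age calls are. Of 67 levels 65 moved by less than 1 SD. Age calls in the classes (1 reported) numbered 0 with Bonferroni adjustment, 4 with no filter on low counts, 2 with at least 30 cells, 4 with cells classed by class name alone and 0 to 2 without 1 library. In neuron clusters (4 reported) they numbered 0 with Bonferroni, 2 with DESeq2, 7 with no filter and 7 with at least 30 cells. Differences of the age change from excitatory neurons (1 reported) gave 0 with Bonferroni, 3 with no filter, 2 with at least 30 cells, 6 by class name alone and 0 to 3 without 1 library. Cocaine at 48 h in clusters (0 reported) gave 1 with no filter, 1 with at least 30 cells, 1 with the 4 libraries of that time alone and 0 to 1 without 1 library, and 15 days gave 0 to 1 without 1 library.

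With the mitochondrial and ribosomal protein genes kept in the total, Bdnf in excitatory neurons at P21 was 135.9 CPM in place of 148.9 CPM, and Ntrk3 in Exc_2 at P21 was 70.0 CPM in place of 76.6 CPM. The age difference of Bdnf in excitatory neurons was -0.029 with the 2 saline libraries of 15 days only, and that of Ntrk2 in astrocytes was 0.14 by class name alone. Bdnf in Exc_4 lost its call with all 12 P60 libraries (adjusted p = 0.0569), with the 15-day saline libraries (0.286) and with P21 libraries 2 and 3 summed (0.0508), and Ntf3 in Exc_9 with at least 30 cells (0.0833), all by edgeR. The cause was not tested. Where 1 library is left in a group, it is assumed to vary like the others. No paired analysis was possible because the adult replicate numbers follow accession order and the P21 and P60 mice are different animals.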

Other observations

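Ntrk2 was also seen at similar levels across the oligodendrocyte precursor clusters, from 430.2 CPM in OPC_5 to 683.7 CPM in OPC_4 at P60, in 8 clusters of which 4 had 1 library of at least 10 cells. Among inhibitory clusters with at least 2 libraries of 10 cells, Bdnf at P60 was highest in Inhib_8 (69.0 ± 9.66 CPM, n = 2 libraries) and Inhib_3 (59.2 ± 17.0 CPM, n = 4). At P21 no cluster with 2 such libraries exceeded 7.87 CPM, but the clusters that reach this number differ between the ages. Summed over all their P21 cells, Inhib_3 held 41.0 CPM (2 UMIs in 9 cells) and Inhib_8 held 13.5 CPM (2 UMIs in 23 cells).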
